A study of Mus musculus with 192 samples.

Results

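Of the 50000 accessible windows deposited for a mixture of tumour cells and splenocytes, 6007 (12.0%) were single-summit windows at CpG-rich promoters. Each is 500 bp wide and centred on the only summit of its peak call. Its midpoint lay within 1 kb of the start of a protein-coding transcript, with all such starts on the same strand, and its CpG ratio was at least 0.6. The CpG ratio is the number of CpG dinucleotides in the window divided by the number that its C and G content would give, and it was computed from the mm9 mouse genome. The rule used sequence, position and the name of the peak call, and no read count or score. The name tells whether a call had 1 summit or several, which peak calling took from the reads, and the list itself was cut by q-value. These windows are called CpG-rich windows below, and are compared with the 3206 single-summit windows of lower CpG ratio at one-strand promoters (CpG-poor windows) and with the 4675 one-strand promoter windows from calls with several summits (multi-summit windows). A further 1701 windows lay within 1 kb of starts on both strands (both-strand windows), which gives 15589 windows near a protein-coding start.

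The windows come from Pi-ATAC, in which fixed cells are stained for proteins and sorted singly. Here the mixed cells were transposed together before the staining, and the index sort recorded each cell's stain, so that open chromatin is profiled in cells of known stain. The titles give 96 cells of 4T1, a mouse breast cancer cell line, stained for EpCam, and 96 freshly isolated splenocytes stained for CD45, from 1 spleen of an MMTV-PyMT mouse (a strain whose transgene drives mammary tumours) that carried no tumour at the time. Neither group received a treatment, and by source names the groups hold 95 and 97 cells. The list names no cell or group. Its peak names look like calls on the cells of both groups together, although the methods describe calls per condition, so every value below describes 1 list without replicates, intervals cover counting error only, and windows and genes are not replicates.

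Most mammalian genes that are used in nearly every cell start inside CpG islands, stretches of DNA that kept their CpG dinucleotides because they are unmethylated in the germ line. Such promoters lack nucleosomes around the start when active, often lack a TATA box, and carry short binding sequences for ubiquitous activators. Other CpG islands belong to developmental regulators, which Polycomb complexes keep silent outside their lineage. CpG-poor promoters are more typical of genes particular to a tissue.

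Sequences of CpG-rich windows are shown first, since the words they hold recur in the results. They are given 5′ to 3′ in the sense of the gene with coordinates of mm9, from the reference genome and not from reads. In the first pair capitals mark CpG dinucleotides, and the pair shows what the CpG rule separates. It was chosen after values were seen, as the window with the most CpGs near a gene of the lists below and the CpG-poor window with the fewest. Pou4f1 encodes a POU-domain factor of sensory neurons, and its CpG-rich window held 88 CpGs in 500 bp, of which 21 fall in the 150 bases shown. Ndufs6 encodes a subunit of respiratory complex I, and a CpG-poor window with its midpoint at -862 bp from the start held 2 CpGs, none of them in the bases shown. The same gene also had a CpG-rich window, at -20 bp, with 38 CpGs.
Pou4f1 (chr14:104867187-104867336, minus strand): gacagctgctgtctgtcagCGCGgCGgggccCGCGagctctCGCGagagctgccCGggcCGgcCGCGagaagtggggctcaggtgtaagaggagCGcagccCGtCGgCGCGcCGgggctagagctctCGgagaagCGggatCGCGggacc
Ndufs6 (chr13:73466777-73466926, minus strand): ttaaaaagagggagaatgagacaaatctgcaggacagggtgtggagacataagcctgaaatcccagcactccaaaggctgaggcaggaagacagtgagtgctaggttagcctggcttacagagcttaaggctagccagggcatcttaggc

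Consensus words, short strings bound by families of transcription factors, were searched on both strands. In each sequence of the next set capitals mark 1 match of the word named for that gene, and other words or a further match can stand in the same stretch in lower case. The genes are those of the lists whose CpG-rich window holds the word nearest to its midpoint, among matches with at most 30 exonic bases in the stretch shown. Mcm2, a subunit of the replicative helicase, shows the SP/KLF word GGGCGGG centred 43 bp upstream of its start. Rfc5, a subunit of the clamp loader, shows the ETS word CCGGAAG 22 bp upstream. Ube2s, a ubiquitin-conjugating enzyme of mitotic exit, shows the YY1 word ATGGCGGC on the opposite strand, 427 bp downstream of the nearest start. Mrpl22, a protein of the mitochondrial ribosome, shows the NRF1 word GCGCATGCG 26 bp upstream. Nup133, a scaffold protein of the nuclear pore, shows the cyclic AMP response element TGACGTCA, here CRE, 63 bp upstream. Psmb2, a subunit of the proteasome core, shows the word CTCGCGAG of the methylation-sensitive factor BANP 31 bp upstream.
Mcm2 (chr6:88848774-88848860, minus strand): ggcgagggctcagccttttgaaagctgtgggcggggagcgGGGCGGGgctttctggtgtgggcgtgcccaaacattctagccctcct
Rfc5 (chr5:117839035-117839121, minus strand): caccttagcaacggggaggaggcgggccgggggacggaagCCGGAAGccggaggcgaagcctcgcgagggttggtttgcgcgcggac
Ube2s (chr7:4763501-4763530, minus strand): caagacatcccGCCGCCATttcgtccagcc
Mrpl22 (chr11:57985093-57985181, plus strand): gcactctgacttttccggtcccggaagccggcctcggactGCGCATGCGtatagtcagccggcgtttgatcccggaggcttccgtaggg
Nup133 (chr8:126473185-126473272, minus strand): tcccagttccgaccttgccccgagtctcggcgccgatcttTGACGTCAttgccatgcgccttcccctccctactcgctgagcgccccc
Psmb2 (chr4:126354800-126354887, plus strand): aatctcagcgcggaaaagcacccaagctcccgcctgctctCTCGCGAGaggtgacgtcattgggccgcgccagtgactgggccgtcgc

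CpG-rich windows had a median CpG ratio of 0.812 and a highest of 1.28, a median of 40 CpGs (11 to 102) and a median GC content of 63.4% (35.4 to 83.4%). These values follow from the rule and are given as description. CpG-poor windows had a median ratio of 0.373 and 12 CpGs, and multi-summit windows, which the rule did not select on CpG, a median ratio of 0.721. Just inside the limit were the windows of the lipid-remodelling gene Pgap2 (0.6002), of Pura, a nucleic acid binding protein (0.6004), and of the repair factor gene Tonsl (0.6008). Just outside were those of the semaphorin gene Sema6a, which equals the limit when rounded, Cmtm7 (0.5999) and Rhpn2 (0.5998).

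CpG-rich windows were centred on gene starts more tightly than CpG-poor and multi-summit windows, though not than both-strand windows. The position differences below are partly built in and are given as description. A window displaced from a CpG-rich start can fall below the CpG limit and so count as CpG-poor. Multi-summit windows have the other summits of their call close by, and these cannot all lie on the start. How much of each difference follows from this was not tested. The median midpoint of CpG-rich windows lay 27 bp upstream of the nearest start, with quartiles 119 bp upstream and 88.5 bp downstream. Their most common 50 bp interval was the one directly upstream of the start, with 907 windows (15.1%). Within 100 bp of a start lay 47.0% of CpG-rich windows, 20.6% of CpG-poor windows and 28.2% of multi-summit windows. The difference was 26.4 percentage points from CpG-poor windows (95% Newcombe interval 24.5 to 28.3) and 18.8 points from multi-summit windows (17.0 to 20.6), and both held on 20 of 20 chromosomes. Within 250 bp the shares were 75.8%, 37.4% and 54.3%. Of both-strand windows 52.5% lay within 100 bp and 76.0% within 250 bp. Fewer CpG-rich windows than CpG-poor ones lay downstream of the start, 41.9% against 52.6%, a difference of -10.7 points (-12.8 to -8.54) with the same direction on 20 of 20 chromosomes.

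**Figure D1:**
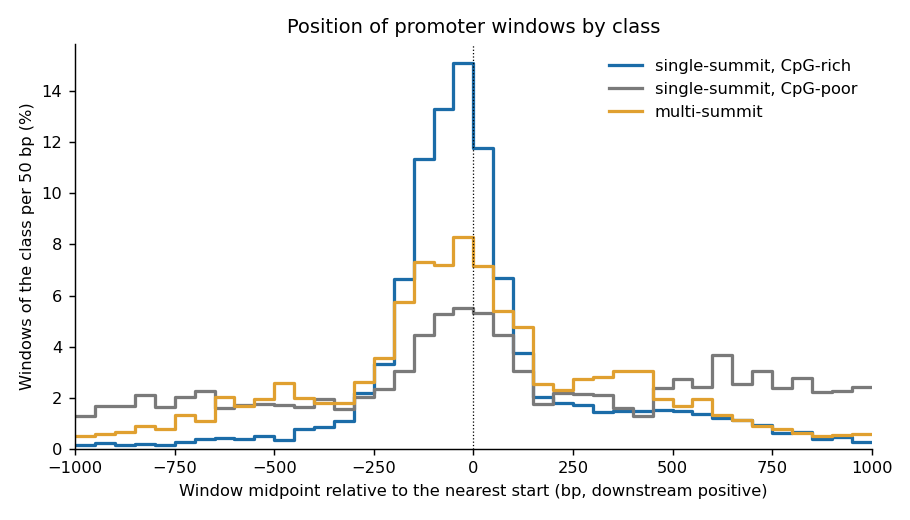
Percentage of the windows of each class per 50 bp (vertical axis) by the distance of the window midpoint from the nearest start of a protein-coding transcript in bp (horizontal axis, downstream positive). CpG-rich windows (blue) peak at 15.1% directly upstream of the start, and CpG-poor windows (grey) and multi-summit windows (orange) spread further on both sides.

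By gene structure, 2935 CpG-rich windows (48.9%) had their midpoint upstream of the gene, 1397 (23.3%) in a UTR, 462 (7.69%) in a coding exon and 1213 (20.2%) in an intron. Introns held 46.9% of CpG-poor and 30.3% of multi-summit windows. CpG-rich windows were also the most isolated of the 3 classes. Another deposited window lay within 500 bp of 9.81% of them, against 12.4% of CpG-poor and 74.5% of multi-summit windows, and the median distance to the nearest window was 3.03 kb, against 1.09 kb and 0.378 kb. The figure for multi-summit windows follows from how they were chosen, since the other summits of the call are close by. A long non-coding transcript started on the opposite strand within 1 kb of 423 CpG-rich windows (7.04%), a share 3.11 points above that of CpG-poor windows (2.15 to 4.03) and 1.30 points below that of multi-summit windows (0.285 to 2.33 points below).

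Most genes with a CpG-rich window had exactly 1. Of 22342 protein-coding genes 5223 had at least 1 (23.4%), 4471 of them 1 and 752 several, and 38 windows lay near starts of more than 1 gene. Ptch1, the receptor of hedgehog ligands, had the most, with 5 windows on chr13 at 904, -570, -110, -805 and 493 bp from the nearest of its starts. In that order their CpG ratios were 0.675, 0.701, 1.05, 0.609 and 0.779, so that 1 of the 5 was above 1. Brd2, a reader of acetylated histones, Gnas, the imprinted gene of a G protein subunit, Hmgb1, an abundant chromatin protein, and Nedd4, a ubiquitin ligase, had 4 each, as did Nr4a2, Prickle1 and Rest. The annotation gives Gnas 9 starts, Brd2 6, Hmgb1 5 and Ptch1 4, whereas Nedd4 has 1, so its 4 windows at -893, -425, -55 and 671 bp, share a single start. In 526 cases (8.76%) the window was near no outermost start of a gene and rested on an internal start alone.

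To ask which CpG-rich promoters had such a window, the 500 bp around each start were classed by the same ratio, whether or not a window was present. Where a gene had several one-strand starts, that of highest CpG ratio was used for the ratios and words at starts. Windows were credited to a gene within 1 kb of any of its starts, so the start used need not be the nearest. A CpG-rich start with no start on the other strand within 1 kb was found for 10051 genes. A CpG-rich window was present at 5064 of them, which is 50.4% (95% Wilson interval 49.4 to 51.4). A further 1565 (15.6%) had a multi-summit window and no CpG-rich one, 488 a CpG-poor window, 47 a window shared with a gene on the other strand, and 2887 (28.7%) no deposited window. Absence from the list means only that no summit there was among the 50000 kept by q-value. Of the 2887 genes 159 (5.51%) had a window between 1 and 2 kb from the start, and the median distance to the nearest window was 21.0 kb.

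The share with a CpG-rich window was higher at a higher CpG ratio at the start. It was 29.8% for ratios from 0.6 to 0.7, 49.2% from 0.7 to 0.8, 53.0% from 0.8 to 0.9, 57.6% from 0.9 to 1.0, 58.7% from 1.0 to 1.1 and 65.8% above. The first step is partly built in, since a window displaced from a start near the limit can fall below it, and CpG-poor windows made up 9.65% in the lowest of these bands and 3.68% from 0.8 to 0.9. The share of genes with no window is free of that limit and went from 45.9% down to 18.6% over the same bands. Multi-summit windows kept to a narrow range, from 12.5% to 17.5%. Between chromosomes the share ran from 43.7% on X (38.3 to 49.2) to 57.1% on chromosome 16 (51.6 to 62.4). Chromosomes 1 and 10 to 13 are a set chosen from this same list, with earlier results known, because fewer of the peak calls there were kept. A lower share on them is therefore partly built in and is only described. The share was 47.2% on the set against 51.5% elsewhere, a difference of -4.29 points (-6.50 to -2.07). Single chromosomes ran from 44.5% to 50.1% inside the set and from 43.7% to 57.1% outside it.

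**Figure D2:**
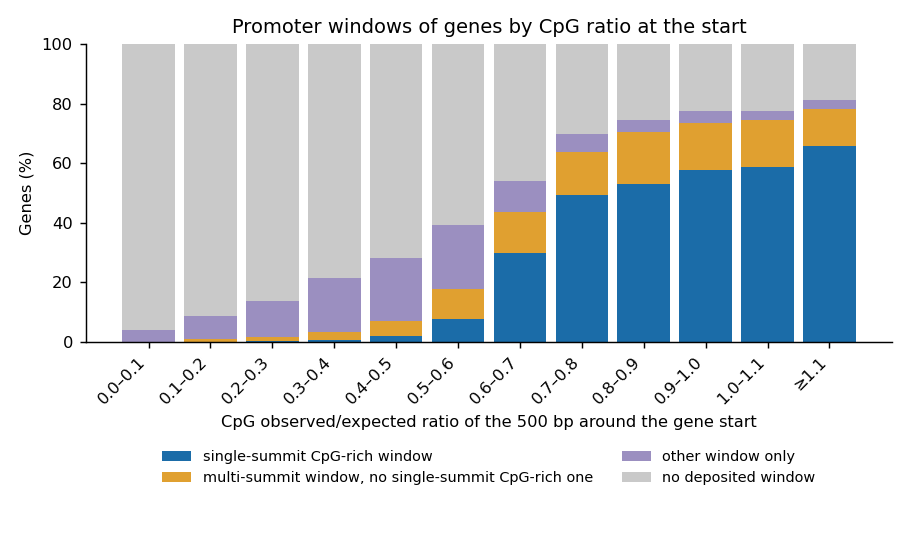
Percentage of protein-coding genes with a one-strand start (vertical axis, stacked) that had a CpG-rich window, a multi-summit window without a CpG-rich one, another window only, or none, by the CpG ratio of the 500 bp around the start (horizontal axis). The blue share grows from 29.8% to 65.8% over the bands from 0.6 up, and the grey share without a window falls from 45.9% to 18.6%.

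Genes were then grouped by function into 23 lists, and the counts below cover the list genes with a CpG-rich one-strand start. Beside each share stands the background, 50.4% with a CpG-rich window. For 16 of the 23 lists the share was above it, though some of their intervals, given below, include it.

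Genes of protein synthesis were mostly above the background. Translation factors had a CpG-rich window at 31 of 41 CpG-rich promoters (75.6%, 60.7 to 86.2), the mitochondrial ribosome at 33 of 47 (70.2%, 56.0 to 81.4) and aminoacyl-tRNA synthetases, which charge tRNAs, at 17 of 25 (68.0%, 48.4 to 82.8). The translation factor list also took in the Argonaute genes Eif2c1 to Eif2c4 by their older names. Cytosolic ribosomal protein genes were close to the background, with 38 of 71 (53.5%, 42.0 to 64.6). A further 19 (26.8%) had a multi-summit window, against 15.6% of all CpG-rich genes. No window was present at 12 (16.9%), against 28.7% of all CpG-rich genes. The summit was within 3 bp of the start of Rpl31, Rps9 and Rpl28 in the cytosolic ribosome and of Mrps17 and Mrps2 in the mitochondrial one, and within 2 bp of the start of Eif2b3, which encodes a subunit of the exchange factor of eIF2. Rpl3 had no window although the CpG ratio at its start was 1.00, and the nearest window lay 5.39 kb away. The same held for the elongation factor gene Eef2 (1.01, nearest window 7.57 kb). Among the ribosomal genes without a window are Rpl10l and Rpl39l, copies known for expression in testis.

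Transcription and RNA genes also had shares above the background, though the intervals of the polymerase and spliceosome lists include it. Subunits of RNA polymerase II and the general factors gave 18 of 27 (66.7%, 47.8 to 81.4), spliceosome subunits 15 of 21 (71.4%, 50.0 to 86.2) and nuclear pore proteins 14 of 19 (73.7%, 51.2 to 88.2). Summits lay 3 bp upstream of the start of Gtf2h2, a subunit of the TFIIH helicase complex, 1 bp downstream of that of Cdc5l, a core splicing factor, and 2 bp downstream of that of Aaas, a nuclear pore protein. Snrnp70, the U1 particle protein, had no window at a start of ratio 1.11, and the nearest lay 1.77 kb away. Sec13, a coat protein that also builds the nuclear pore, had none within 26.4 kb.

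Protein turnover genes had the highest shares among the lists of over 20 CpG-rich promoters, together with translation factors. Proteasome subunits gave 22 of 29 (75.9%, 57.9 to 87.8) and E2 enzymes, which carry ubiquitin to substrates, 21 of 28 (75.0%, 56.6 to 87.3), with the summit of Ube2h 1 bp from its start. Coat proteins of secretory vesicles and the SEC61 channel gave 10 of 21 (47.6%, 28.3 to 67.6). In this list 5 (23.8%) had no window, against 28.7% of all CpG-rich genes, among them Sec61a1, a channel subunit. Respiratory chain subunits gave 31 of 46 (67.4%, 53.0 to 79.1). Uqcrfs1, the iron-sulfur protein of complex III, had a summit 4 bp upstream of its start. Cycs, cytochrome c, had no window at a start of ratio 1.06.

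Of 38 replication and cell cycle genes 28 (73.7%, 58.0 to 85.0) had a CpG-rich window. They include Bub1, a kinase of the spindle checkpoint, and Ccna2, cyclin A2, each with its summit 2 bp upstream of the start, as well as the proliferation marker Mki67. Pcna, the sliding clamp, and Top2a, the mitotic topoisomerase, had none at starts of ratio 0.995 and 1.07, and their nearest windows lay 5.61 kb and 51.8 kb away. DNA repair genes gave 15 of 24 (62.5%, 42.7 to 78.8) and 7 multi-summit windows, with Brca2 as the gene without any. Chromatin regulators gave 34 of 53 (64.2%, 50.7 to 75.7), among them Dnmt1, the maintenance methyltransferase, Suv39h1 and Chd4, with summits 10 to 13 bp upstream. The demethylase gene Kdm1a and the Polycomb gene Cbx2 were among 9 (17.0%) without a window, against 28.7% of all CpG-rich genes. Hypoxia and glycolysis genes gave 20 of 29 (69.0%, 50.8 to 82.7), including Hif1a itself, its partner Arnt, Vegfa and Ldha.

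Immediate early genes, which respond to stimulation within minutes, had a window more often than CpG-rich genes as a whole, and more often a multi-summit one. All 28 had a CpG-rich start and all 28 had a window, against 71.3% of all CpG-rich genes. A CpG-rich single-summit window was present at 12 (42.9%, 26.5 to 60.9), among them Fos, Myc, Fosl1 and Dusp2. The other 16 (57.1%) had a multi-summit window and no CpG-rich one, against 15.6% of all CpG-rich genes, and include Jun, Junb, Egr1, Atf3 and Srf.

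The cell type lists were smaller. Of 21 epithelial genes with a CpG-rich start 15 (71.4%, 50.0 to 86.2) had a CpG-rich window, such as Cdh1, the gene of E-cadherin, and Grhl2 and Esrp1, regulators of epithelial identity. Cdh1 had its summit 620 bp downstream of the start, Grhl2 71 bp and Esrp1 32 bp. Krt18, a keratin of simple epithelia, also had a CpG-rich window 21 bp upstream although the ratio centred on its start was 0.579. Epcam, which encodes the sorted surface protein, had multi-summit windows at a start of ratio 0.577, and Krt8 and Cldn4 had CpG-poor windows. Only 12 of 41 leukocyte genes had a CpG-rich one-strand start. Of those, 6 (50.0%, 25.4 to 74.6) had a CpG-rich window, close to the background of 50.4%. They were the transcription factors Ikzf1, Runx1, Fli1 and Bach2, the kinase Lyn and the phospholipase Plcg2. Ebf1, Runx3 and Wasf2 had only CpG-poor windows, and Ikzf3, Lef1 and Tcf7 had none. Ptprc, which encodes CD45, had no window at a start of ratio 0.298. Coro1a and Vav1 had CpG-poor windows and Laptm5 none. Interferon and antigen presentation genes gave 11 of 14 (78.6%, 52.4 to 92.4), among them Stat2, Irf1 and the receptor genes Ifnar1 and Ifngr1, and the other 3, B2m, Irf2 and Jak2, had multi-summit windows.

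CpG-rich promoters of genes best known from other lineages mostly had no window. Developmental transcription factors had a CpG-rich window at 16 of 111 (14.4%, 9.07 to 22.1), and 91 (82.0%) had no window at all, against 28.7% of all CpG-rich genes. The median CpG ratio at their starts was 0.819. Among the 16 lists above the background this median ran from 0.741 for epithelial genes to 0.968 for spliceosome subunits. Whether the CpG ratio accounts for the missing windows was not tested. The 16 include Hoxa3, Hoxa4, Hoxa5 and Hoxa7, which lie in the same cluster, as well as Lhx2 and the T cell and early embryo factor Eomes. The summit of Hoxa5 lay 5 bp downstream of its start. Six2 and Hoxb8, with ratios of 1.11 and 1.10, had no window within 45.6 kb and 19.5 kb. Neuronal genes gave 2 of 27 (7.41%, 2.06 to 23.4), Syn1 and Mtap2, and 22 (81.5%) had no window. Germline genes gave 3 of 22 (13.6%, 4.75 to 33.3), namely the RNA-binding gene Dazl, the meiotic gene Sycp3 and the Tudor gene Tdrkh. Imprinted genes, of which 1 parental copy is methylated or silent, gave 6 of 20 (30.0%, 14.6 to 51.9), with Cdkn1c, Gnas, Igf2r, Inpp5f, Mcts2 and Zrsr1 on one side and 13 genes without a window, such as Dlk1 and Grb10, on the other.

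**Figure D3:**
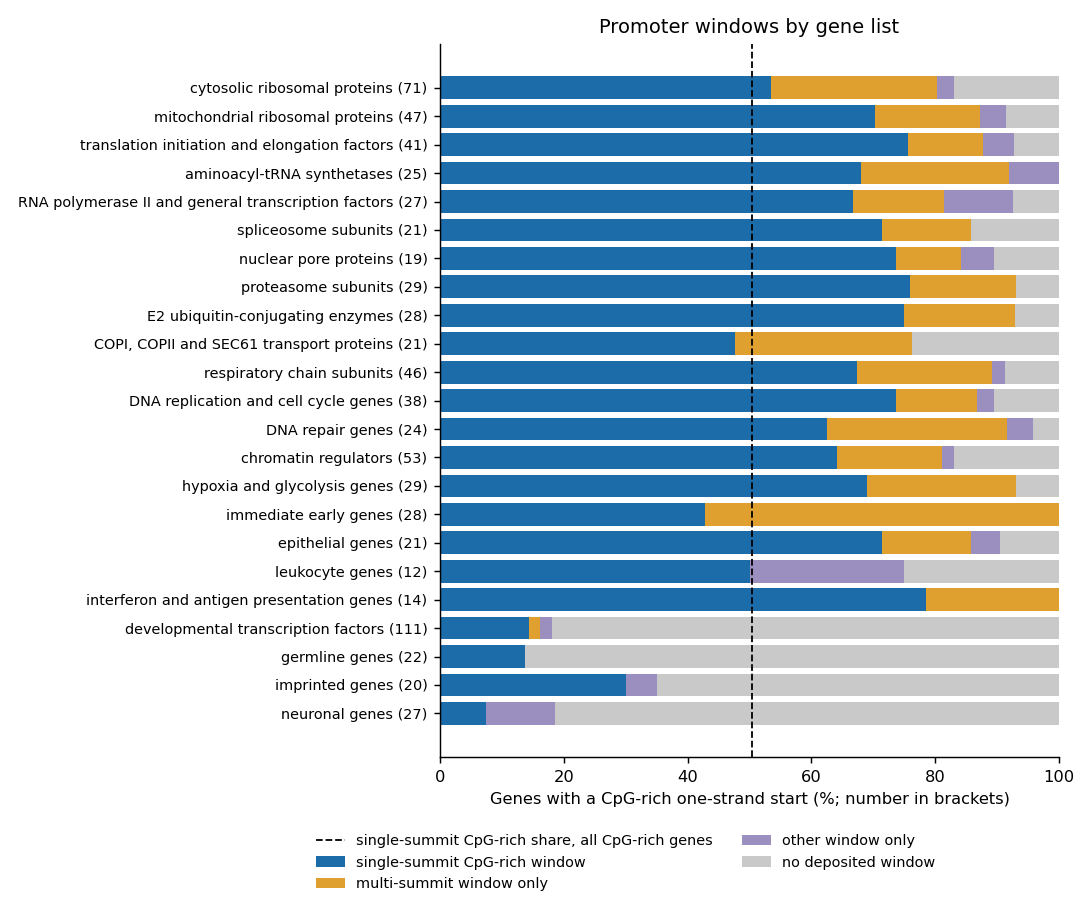
Percentage of the genes of each list with a CpG-rich one-strand start (horizontal axis, stacked, number of such genes in brackets). The parts are genes with a CpG-rich single-summit window, a multi-summit window without a CpG-rich one, another window only, or none. The dashed line marks 50.4%, the share with a CpG-rich window over all CpG-rich genes, and developmental, germline and neuronal lists end between 7.41% and 14.4%.

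Next, 25 consensus words were counted in the windows. Words that hold a CpG are tied to the rule, so their higher share in CpG-rich than in CpG-poor windows is only described. The SP/KLF word was found in 62.3% of CpG-rich, 23.8% of CpG-poor and 48.0% of multi-summit windows, and in 21.1% of all 50000. Among windows of 60 to 70% GC its difference from CpG-poor windows was 8.21 points. SP and KLF proteins are zinc-finger activators of GC boxes. The ETS word, bound by factors such as GABP, was found in 23.1%, 8.05% and 17.6%, and in 8.56% of all windows, with 28.1% of both-strand windows above the CpG-rich class. The YY1 word was found in 8.97%, 1.56% and 4.64% (2.34% of all), and the word of NRF1, an activator of mitochondrial genes, in 4.51%, 0.468% and 2.23% (1.12% of all). Both-strand windows held these last words in 8.88% and 4.29%.

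Of the words without a CpG, most were less common in CpG-rich than in CpG-poor windows. AP-1, the FOS and JUN dimer, binds TGANTCA, which was found in 6.21% of CpG-rich windows, 18.9% of CpG-poor windows and 24.8% of all windows. The difference from CpG-poor windows was -12.7 points (-14.2 to -11.2) and from multi-summit windows, with 12.3%, -6.13 points (-7.27 to -5.02), each on 20 of 20 chromosomes. Among windows of 60 to 70% GC the difference from CpG-poor windows was -4.61 points. The RUNX word TGTGGT was found in 16.9% against 30.0% of CpG-poor windows, and 32.1% of all, with an interval of the difference from -14.9 to -11.2 points. Among windows of 60 to 70% GC it was -3.73 points and its interval spanned 0. The GATA word AGATAA was found in 7.56% against 15.1%, and the TATA box, here TATAAA, in 7.23% against 14.3%, but both differences turned to small positive values, 1.41 and 1.05 points, among windows of 60 to 70% GC. The short NFY word CCAAT, bound by a trimeric activator of promoters, was found in 45.1% of CpG-rich, 46.0% of CpG-poor and 46.2% of all windows. Among windows of 60 to 70% GC, however, it was 6.71 points more common in CpG-rich than in CpG-poor windows.

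Promoters with and without a window were then compared, where both sides meet the same CpG limit at the start. The 500 bp around the start held an ETS word at 25.1% of the 5064 promoters with a CpG-rich window and at 12.1% of the 2887 without a window. The difference was 13.0 points (11.3 to 14.7) and had the same direction on 20 of 20 chromosomes. At promoters with multi-summit windows the share was 25.0%, and the difference from those with a CpG-rich window was 0.0752 points (-2.42 to 2.48). The median CpG ratio was 0.870 with and 0.804 without a window, and the median GC content was 66.4% in both. Within the band of ratios from 0.8 to 0.9 the ETS difference was 13.0 points (9.55 to 16.2), and among starts of 60 to 70% GC it was 15.6 points (13.0 to 18.1).

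The YY1 word was at 11.3% of promoters with a CpG-rich window and 5.44% without a window, a difference of 5.84 points (4.61 to 7.02) on 19 of 20 chromosomes. A looser CRE word, TGACGNNA, gave 15.7% and 9.63%, a difference of 6.07 points (4.58 to 7.52) on 20 of 20. The short NFY word gave 42.5% and 35.7%, a difference of 6.82 points (4.59 to 9.02) on 16 of 20. For these words the interval also stayed above 0 within the band of ratios from 0.8 to 0.9. The SP/KLF word gave 68.4% and 59.4%, a difference of 8.95 points (6.75 to 11.2), but within that band it was 2.61 points with an interval that spans 0 (-1.65 to 6.95). The TATA box was the only word of the 25 that was less common with a window and had an interval below 0, at 6.40% against 8.42% (-2.02 points, -3.27 to -0.828), and its interval spanned 0 in that band and among starts of 60 to 70% GC. AP-1 was found at 4.74% and 4.33%, a difference of 0.410 points (-0.566 to 1.33). In all, 13 of the 25 words had an interval above 0. Within the band of ratios 6 of these 13 kept it, namely ETS, YY1, NRF2, the looser CRE word and both NFY words. The RUNX word joined them there (3.94 points, 0.781 to 6.87) and the GRHL word had an interval below 0 (-1.60 points, -3.27 to -0.284).

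**Figure D4:**
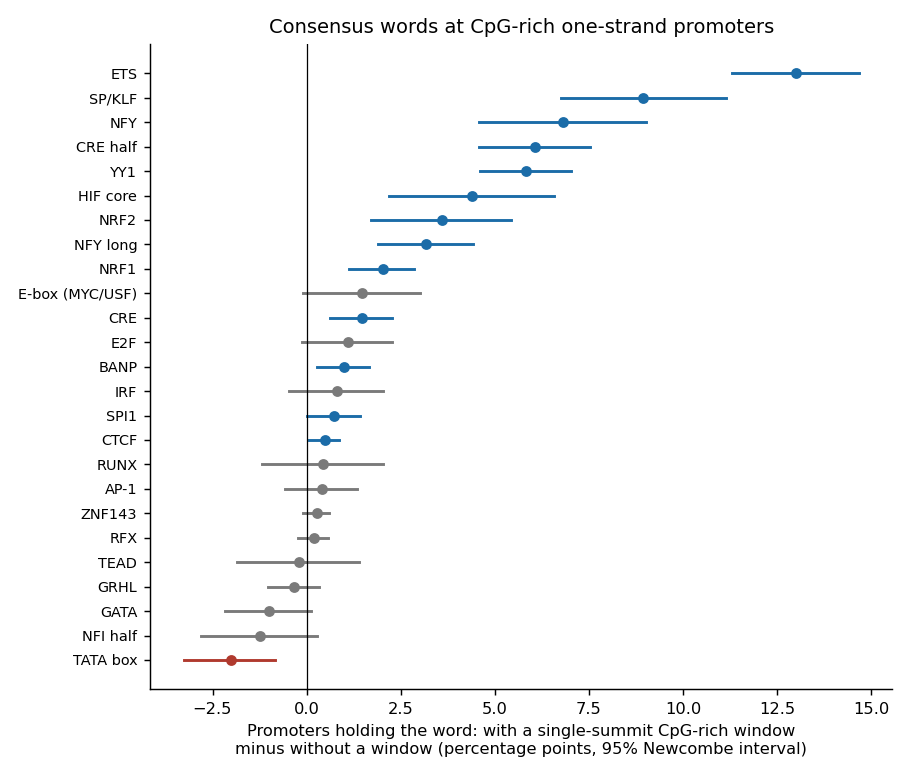
Difference in the percentage of CpG-rich one-strand promoters holding each of 25 words, with a CpG-rich window minus without a window (horizontal axis, percentage points; points are differences and lines 95% Newcombe intervals). Blue marks intervals above 0 and red intervals below 0, and the CRE entry nearest the top is the looser word TGACGNNA. ETS is furthest to the right at 13.0 points and the TATA box is the one in red.

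Several of these words were concentrated near the start. Positions were taken over 1 kb around the start of highest CpG ratio of each gene. For genes with a CpG-rich window, SP/KLF, ETS, NRF1 and CRE words were most common in the 50 bp directly upstream. This interval held 15.9%, 21.1%, 25.9% and 30.8% of their matches. The short NFY word was most common from 100 to 50 bp upstream, and its median lay 101 bp upstream. The YY1 word stood downstream, with a median 47.5 bp past the start and 30.5% of matches in the first 50 bp. AP-1 words had no such place, with 14.2% of matches within 100 bp of the start. TATA boxes had 10.3% of matches there, with a local peak from 50 to 25 bp upstream. That interval held 9.68 matches per 1000 promoters with a CpG-rich window and 18.4 per 1000 without a window. The 25 bp before it held 2.37 and 3.12, and the 25 bp after it 3.36 and 2.77. Of the 329 YY1 matches in the first 100 bp of the transcript, 256 (77.8%) read in the sense of the gene. In the 25 bp upstream of the start, ETS matches numbered 48.8 per 1000 promoters with a CpG-rich window and 20.1 per 1000 without a window. For YY1 the values in the first 25 bp past the start were 22.5 and 8.66, and for NFY from 75 to 50 bp upstream 88.1 and 56.1.

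**Figure D5:**
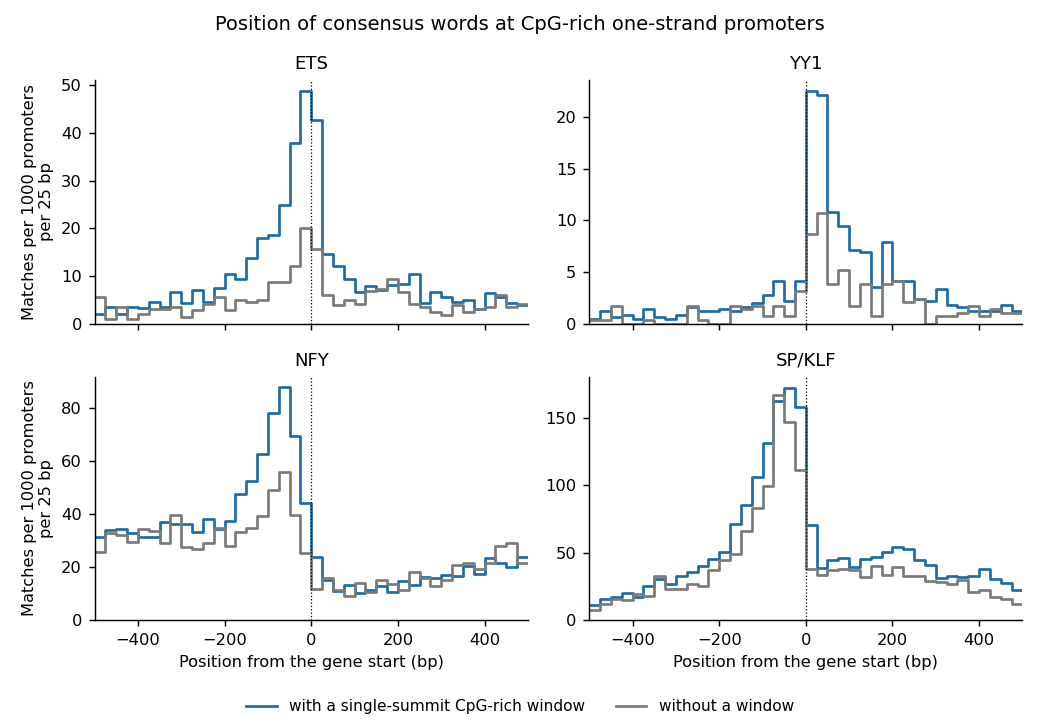
Matches per 1000 CpG-rich one-strand promoters per 25 bp (vertical axes) by position from the gene start in bp (horizontal axis) for the ETS, YY1, NFY and SP/KLF words, with a CpG-rich window (blue) and without any window (grey). ETS reaches 48.8 against 20.1 directly upstream of the start, and YY1 22.5 against 8.66 directly past it.

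The words also differed between the gene lists, given here as description for the CpG-rich windows of each list. Not every list and word counted is given. ETS words, in 23.1% of all CpG-rich windows, were in 14 of 20 windows of RNA polymerase II and general factor genes (70.0%, 48.1 to 85.5). Spliceosome genes had them in 8 of 16 windows (50.0%, 28.0 to 72.0) and the coat protein and SEC61 list in 5 of 10 (50.0%, 23.7 to 76.3). Cytosolic ribosomal protein genes had them in 21 of 45 (46.7%, 32.9 to 60.9) and translation factor genes in 14 of 33 (42.4%, 27.2 to 59.2). ETS words were in 5 of 49 windows of chromatin regulator genes (10.2%, 4.44 to 21.8) and 2 of 17 of immediate early genes. YY1 words, in 8.97% of all, were in 10 of 38 windows of mitochondrial ribosomal genes (26.3%, 15.0 to 42.0) and 6 of 23 of proteasome genes (26.1%, 12.6 to 46.5). Replication and cell cycle genes had the E2F word TTGGCGC in 12 of 31 windows (38.7%, 23.7 to 56.2), against 7.62% of all, and the short NFY word in 21 of 31 (67.7%, 50.1 to 81.4), against 45.1%. E2F proteins drive entry into S phase. The HIF core word ACGTG, in 40.8% of all CpG-rich windows, was in 18 of 26 windows of hypoxia and glycolysis genes (69.2%, 50.0 to 83.5). It was also in 9 of 10 windows of the coat protein and SEC61 list (90.0%, 59.6 to 98.2).

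Base composition past the start differed as well. In the 500 bp downstream of the start the excess of G over C, as a share of both, had a median of 6.48% at promoters with a CpG-rich window, 6.72% with a multi-summit window and 3.38% without a window. It was positive at 72.4%, 73.2% and 61.7% of them. In the 500 bp upstream the medians were -0.330%, -0.366% and 0.946%. The number of CpGs in the 2 kb around the start was nearly the same, with medians of 97, 97 and 94.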

How the data were processed

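Pi-ATAC was measured in 192 sorted cells, grouped by title. According to the methods and the submitters' processing notes, the authors mapped reads to mm9 with Bowtie2 2.1.0, removed duplicates with Picard 1.79, called summits on aggregated cells with MACS2 (version not given in the sources used here), and kept the summits of lowest q-value as 500 bp windows. The deposited values are start and end positions with a peak name, without a score or count, so read depth is unknown and no test across samples was possible. Starts and gene models were those of protein-coding transcripts in GENCODE vM1, on the NCBIM37 genome (mm9). CpG ratios, positions, words and shares were computed in Python 3.11.15 with numpy 2.4.6, with 95% Wilson intervals for shares and Newcombe intervals for differences, and tested on simulated data. The rule for named genes took, per list, the 3 genes with a summit nearest a start and up to 2 CpG-rich genes without a window, the 5 genes with the most windows, 3 windows on either side of the CpG limit, and for each word shown the list gene with the nearest match, narrowed to stretches with at most 30 exonic bases. Other genes were named after their values were seen, and some genes that the rule takes are not reported here. Members, lists and words were chosen with earlier results of these data known. Distance, CpG limit, starts, overlaps, GC content and chromosomes were varied.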

Additional observations from a re-analysis of the deposited data

How the results depend on the processing

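The number of CpG-rich windows stayed within 1.5 times of 6007 under every setting tried, from 4028 with a CpG limit of 0.75 to 6805 with 0.5 (5439 within 500 bp, 6132 within 2 kb, 5521 with outermost starts only, 5812 with overlapping windows merged and 6047 with every transcript of protein-coding genes, the last added after the data were seen). The share of CpG-rich genes with such a window, 50.4%, became 51.5% without chromosomes 1 and 10 to 13, 46.2% with a limit of 0.75, 47.3% within 500 bp and 71.3% with any deposited window. The share of midpoints downstream, 41.9%, became 46.2% with outermost starts and 38.0% within 500 bp. Of 23 lists 16 lay above the background, and 17, 17 and 19 did within 500 bp, without chromosomes 1 and 10 to 13 and with any window. Against CpG-poor windows, the differences of 5 words changed sign among windows of 60 to 70% GC: NFY (6.71 points), TATA box (1.05), IRF (1.07), NRF2 (-1.18) and GATA (1.41), and that of NFY also in the central 250 bp (3.89). The cause was not tested. Between promoters with and without a window, 13 words had an interval above 0, and 7 did with CpG ratios of 0.8 to 0.9 (6 of the 13 and RUNX), 10 at 60 to 70% GC and 13 without chromosomes 1 and 10 to 13, all added after the data were seen. The alternative restricted to windows of the highest score was not run, since the deposited list holds no score. No paired analysis was possible because the list is 1 pooled set of windows. The list cannot show how strongly a window was open, nor in which cells.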
